A study of Mus musculus with 11 samples.

Results

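The endoplasmic reticulum (ER) is where a cell folds and ships the proteins it secretes, and 40 genes of that work were examined in the mouse yolk sac at embryonic day 9.5. The genes were chosen by symbol for their function, with earlier results of these data known. Their shares beside those of all genes are therefore a description and not a test. The deposited count table of 15061 genes holds all 40. All 40 also passed the filter on low counts that left 14671 genes for testing. They fall into 5 regulators, 11 chaperones and their partners, 5 disulfide isomerases and lumen redox enzymes, 12 genes of the translocon and signal peptidase, and 7 genes of the COPII coat and its cargo receptors. Bulk RNA sequencing gave 11 libraries of yolk sac in 3 groups. The H1H2H2 group holds 4 libraries, H1H2H2 8 to 11, from embryos labelled Hand1 H2/H2, a genotype meant to carry Hand2 at both copies of Hand1. The H1CKO group holds 3 libraries, H1CKO 5 to 7, from embryos of genotype T-Cre+/-; Hand1 fx/fx. Their floxed alleles are cut only in cells that have expressed Cre from T, the brachyury gene of the primitive streak, whose descendants form the mesoderm of the yolk sac but not its visceral endoderm. The control group holds 4 libraries, control 1 to 4, from Hand1 fx/+ embryos, with 1 floxed and 1 normal allele and no Cre in their labels. Loss of Hand1 and presence of Cre therefore cannot be told apart in H1CKO, and strain, litter and pooling are not stated. The names of control 1 and control 2 share a yolk sac number, so they may not be separate samples, and each result was also computed with their sum as 1 library.

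Proteins bound for secretion enter the ER through the SEC61 channel, lose their signal peptide there, fold with the help of chaperones and disulfide isomerases, and leave in vesicles coated by COPII. When unfolded proteins build up, sensors in the ER membrane start the unfolded protein response, which raises transcription of many of these genes. In the yolk sac the visceral endoderm is the main secretory layer and supplies the embryo with plasma proteins and lipoproteins before the liver does.

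The best known DNA signature of this gene set is the ER stress element (ERSE), the sequence CCAAT, 9 letters of any kind and CCACG, read on either strand. It was looked for in RefSeq promoter windows (build GRCm38.p6) that run from 250 bases before to 50 bases after the transcription start. Windows were found for 33 of the 40 genes, and 6 of them held an exact ERSE (18.2%), against 37 of 27025 genes with a window (0.137%). The element is known from such genes, so a high share among them was foreseen and is not an independent result. The 6 were Hspa5, Calr, Hsp90b1, Canx, Pdia6 and Dnajc3, and Hsp90b1 held a pair of elements. They are shown because they are the sites through which ATF6 and XBP1 are known to act on such genes. Each is printed in the direction of its gene with 20 bases on both sides and the element in capitals, and an element that begins with CGTGG lies on the other strand.
Hspa5, chr2:34772005-34772063, plus strand: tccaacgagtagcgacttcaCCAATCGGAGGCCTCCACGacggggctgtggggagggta
Hsp90b1, chr10:86705618-86705676, minus strand: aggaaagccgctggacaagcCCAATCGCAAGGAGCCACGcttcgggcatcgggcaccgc
Hsp90b1, chr10:86705513-86705571, minus strand: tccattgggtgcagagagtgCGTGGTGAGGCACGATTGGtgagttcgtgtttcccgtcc
Pdia6, chr12:17266471-17266529, plus strand: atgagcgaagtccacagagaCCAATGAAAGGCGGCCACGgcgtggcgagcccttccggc
Dnajc3, chr14:118937807-118937865, plus strand: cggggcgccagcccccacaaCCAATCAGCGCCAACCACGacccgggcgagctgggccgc
Canx, chr11:50325780-50325838, minus strand: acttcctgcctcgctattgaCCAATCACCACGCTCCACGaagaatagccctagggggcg
Calr, chr8:84847055-84847113, minus strand: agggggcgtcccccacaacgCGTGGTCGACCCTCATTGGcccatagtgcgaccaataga

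Hspa5 encodes BiP, the main chaperone of the ER, and its element starts 65 bases before the transcription start. The 160 bases up to that start (chr2:34771930-34772089, plus strand) are printed to show the element in its setting, in capitals.
Hspa5 upstream: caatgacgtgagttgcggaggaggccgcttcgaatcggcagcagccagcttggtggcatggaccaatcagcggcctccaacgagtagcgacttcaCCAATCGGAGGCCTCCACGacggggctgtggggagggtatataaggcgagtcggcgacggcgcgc

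A pair of shorter elements was sought in the same windows and on both strands. ERSE-II, the sequence ATTGG, 1 letter of any kind and CCACG, was found in Herpud1 and Dnajb11 (6.06% of the 33 genes, against 0.0444% of all genes with a window). UPRE, the sequence TGACGTGG, was found in Sec24d (3.03% against 0.714%). With 1 of the 10 fixed letters of ERSE allowed to differ, 12 of the 33 genes held a match (36.4%, against 1.72% of all genes), and Mcfd2 was among the added ones. These matches describe letters in a window and do not show that a factor binds there.
Herpud1, chr8:94386357-94386407, plus strand: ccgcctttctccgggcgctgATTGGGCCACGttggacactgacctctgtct
Sec24d, chr3:123267450-123267495, plus strand: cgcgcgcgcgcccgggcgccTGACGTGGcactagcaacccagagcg
Mcfd2, chr17:87265980-87266038, minus strand: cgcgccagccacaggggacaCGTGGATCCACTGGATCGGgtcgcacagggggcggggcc

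**Figure D1:**
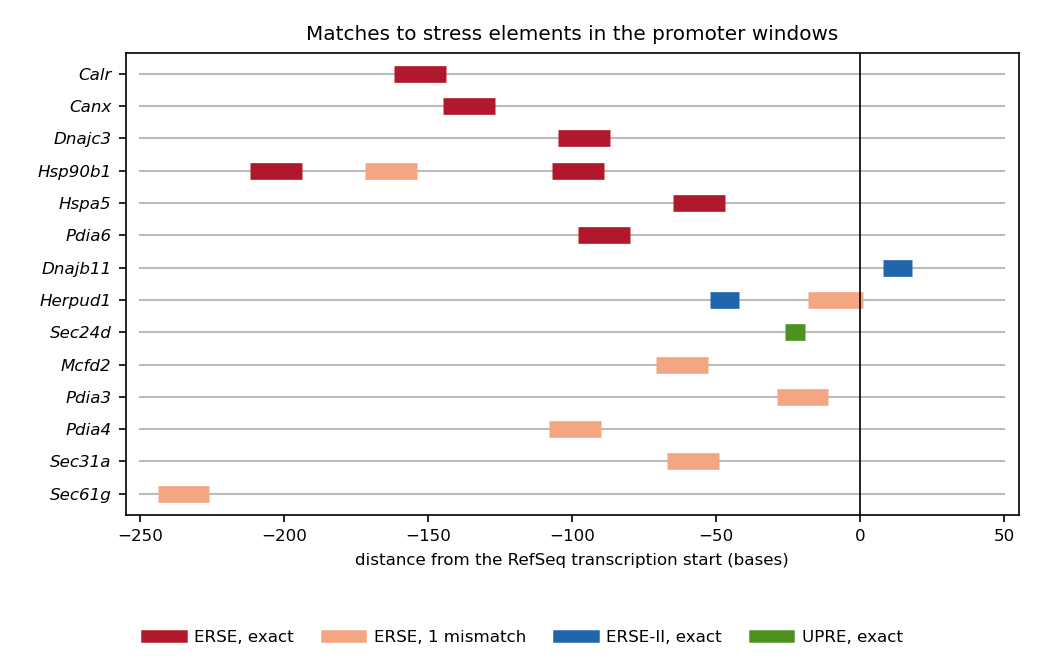
Position of each match in the promoter window of the genes that hold one, in bases from the RefSeq transcription start, with exact ERSE, ERSE with 1 mismatch, ERSE-II and UPRE in separate colours. The exact ERSE matches lie between 212 and 47 bases before the start, with that of Hspa5 the nearest to it.

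Libraries held 12019377 to 16824228 counts, and 5.61% to 11.4% of them came from the ribosomal RNA gene Rn45s. Hand1 was at 9.54 ± 4.49 CPM in H1H2H2 (SD, n = 4) and 7.63 ± 2.71 CPM in H1CKO (SD, n = 3), against 55.6 ± 26.2 CPM in control (SD, n = 4). Hand2 stood at 81.03, 23.6, 35.9 and 33.7 CPM in H1H2H2, 70.5, 72.8 and 91.8 CPM in H1CKO and 43.5, 42.3, 47.2 and 31.7 CPM in control. Hand2 thus exceeded all controls in H1H2H2 8 and in the 3 H1CKO libraries. H1H2H2 9 lay below all 4 controls, and H1H2H2 10 and H1H2H2 11 lay below 3 of the 4. How far counts at Hand2 include the replacement allele was not tested. CPM, counts brought to a common library size, are TMM-scaled throughout. By Xist and Y-linked transcripts, H1H2H2 holds 3 male and 1 female library, H1CKO 3 male, and control 1 male and 3 female. The H1CKO libraries stood apart: all 12 cardiac and all 10 neural and somitic marker genes were higher than in control. Over all genes tested, 27% were higher. The summed cardiac markers came to 28.7 to 65.2 CPM in H1H2H2, 4182 to 10999 CPM in H1CKO and 39.3 to 217 CPM in control, with Myl2 and Nppa at 0 reads in control. The summed neural and somitic markers came to 0.757 to 2.19, 113 to 143 and 1.71 to 3.20 CPM in the same order of groups, with Sox1 and Otx2 at 0 reads in H1H2H2. H1H2H2 9 and control 2 also stood apart, with 12827 and 16677 CPM of summed parietal endoderm markers, against 3725 to 4112 CPM in the other H1H2H2 libraries and 3596 to 3884 CPM in the other controls.

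Most of the ER genes fell in H1CKO. Of the 40 genes, 37 were lower than in control and none was higher by edgeR's quasi-likelihood test (adjusted p under 0.05), and the 3 not called were Atf6, Creb3l2 and Sdf2l1. Over all genes tested, 52.6% were called in this comparison, 27% higher and 25.6% lower, so calls in either direction were common. The median log2 fold change was -0.63 over the 40 genes, where all genes tested had 0.03, and single values ran from -1.54 for H6pd to 0.42 for Creb3l2. All 3 H1CKO libraries lay below all 4 controls for 37 genes and above them for none, and over all genes tested the groups did not overlap for 60.7%, with H1CKO below for 29.1% and above for 31.5%. Lower calls covered 3 of 5 regulators, 10 of 11 chaperones, 5 of 5 disulfide isomerases and redox enzymes, 12 of 12 translocon and signal peptidase genes and 7 of 7 COPII genes. Without control 2, 1 gene was higher (Creb3l2, described with the regulators). Of the 37 lower calls, 24 were changes of at least 1.5-fold.

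In H1H2H2 most of the genes did not pass the test. Against control, 8 were higher in H1H2H2 (Creb3l3, Hspa5, Pdia6, Sec61b, Spcs1, Sec23b, Sar1b and Mcfd2), Calr was lower, and 31 were not called. That is 22.5% of the 40, where 16.7% of all genes tested were called, 9.49% higher and 7.16% lower. The median log2 fold change was 0.15, where all genes tested had -0.013, and 30 of 40 values were above 0. The groups did not overlap for 16 genes with H1H2H2 above and 1 with H1H2H2 below, and over all genes tested they did not overlap for 19%, with H1H2H2 above for 11% and below for 8%. The 9 calls were small and most hung on single libraries: only those of Creb3l3 and Mcfd2 held in all 21 alternatives. The total was 4 without control 1, 5 without control 2, 3 without control 3, 2 without H1H2H2 9, 4 without H1H2H2 10 and 2 without H1H2H2 11. Without H1H2H2 8 it was 15, with Canx, Dnajb11, Sdf2l1, Sec61a1, Spcs3 and Ssr1 added as higher. The count over all genes moved with it, to 2664 higher and 2459 lower without H1H2H2 8, against 1392 and 1051 with all libraries and 431 and 264 without H1H2H2 11. H1H2H2 8 was also the library of its group with the most Hand2 and Hand1 (Hand1 15.2 CPM, against 4.35 to 9.97 CPM). It had the highest sum of extraembryonic mesoderm markers (4557 CPM, against 1633 to 3273 CPM). Its sum of erythroid markers was the lowest (2842 CPM, against 8024 to 14636 CPM). The part of these in the calls was not tested.

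Set directly against each other, the mutant groups differed in nearly all of these genes. Of the 40, 37 were higher in H1H2H2 than in H1CKO, Creb3l2 was lower, and Ern1 and Sec61g were not called, where 65% of all genes tested were called, 31.8% higher and 33.3% lower. Sec61g was called higher in H1H2H2 with no filter on low counts, and without H1CKO 6 or H1H2H2 10 (adjusted p from 0.00955 to 0.0453). The median log2 fold change was 0.84 over the 40 genes and -0.025 over all genes. H1H2H2 lay above H1CKO in every library for 34 genes and below it for 1, and over all genes the groups did not overlap for 62.3%, with H1H2H2 above for 29.7% and below for 32.6%. Both comparisons with control use the same 4 control libraries, so their fold changes are given side by side and not set against each other. Upper-quartile scaling moved the median of all genes in the direct comparison to -0.14 and that of the 40 genes to 0.73.

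**Figure D2:**
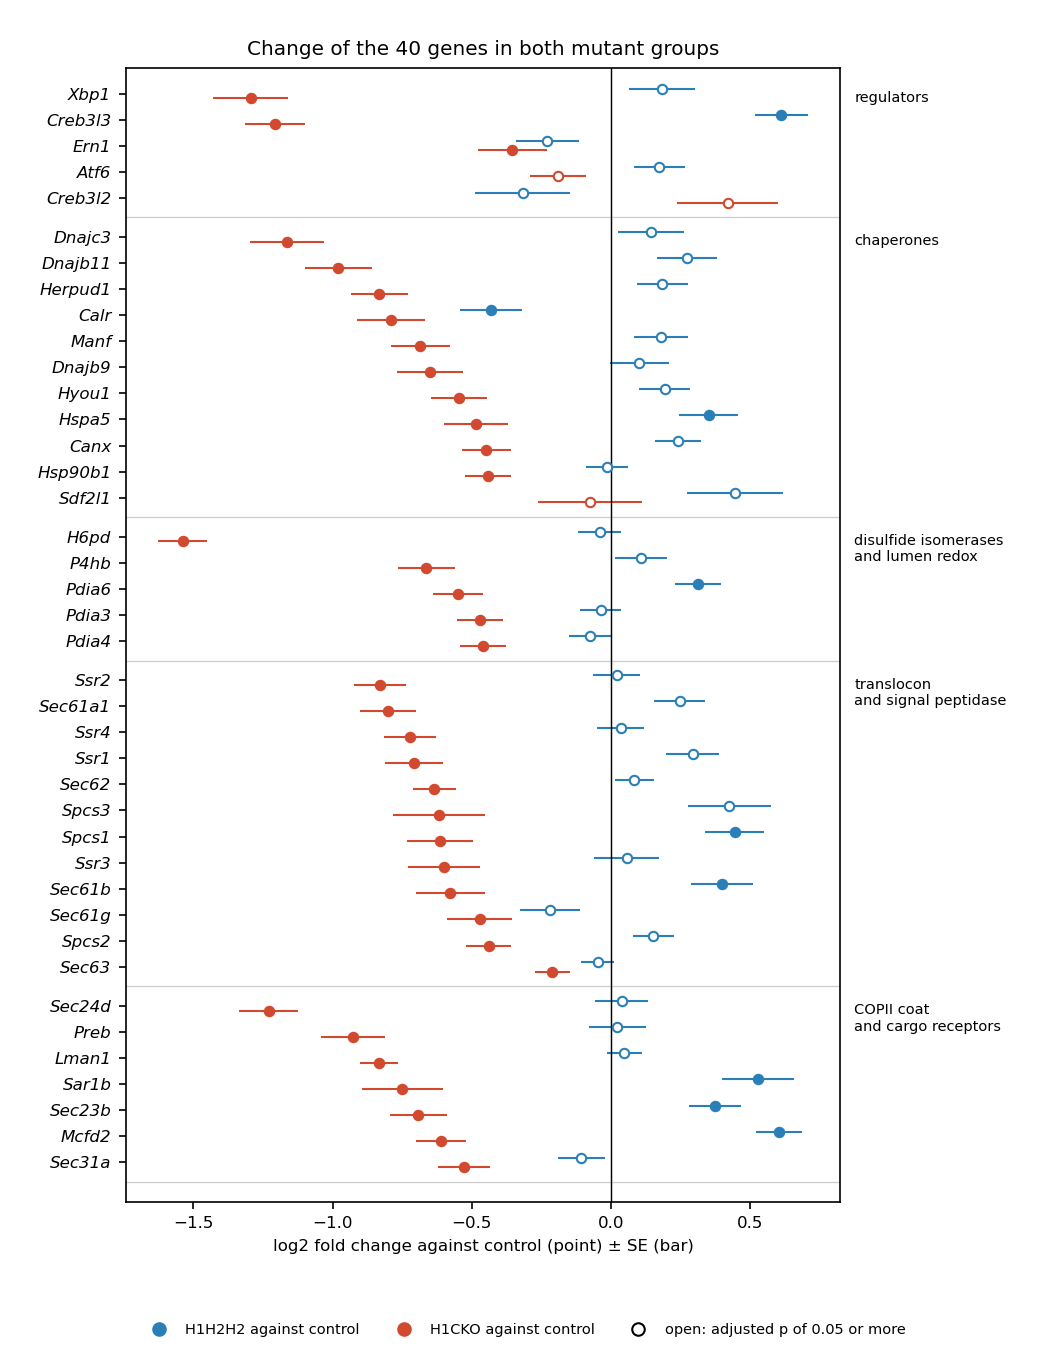
Log2 fold change of each of the 40 genes in H1H2H2 against control and in H1CKO against control, by class, with bars of 1 SE and open symbols where the adjusted p was 0.05 or more. All H1CKO points except Creb3l2 lie left of 0, and the filled H1H2H2 points right of 0 are the 8 genes called higher.

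Visceral endoderm transcripts fell in the same libraries. Of 19 markers of that layer found in the table, 18 were lower in H1CKO than in control and Sox17, which endothelium also expresses, was higher, with a median log2 fold change of -1.51 over the 19. The Sox17 call was lost without control 1, control 3, control 4, H1CKO 6 or H1CKO 7 (adjusted p up to 0.116). H6pd alone of the 40 genes lay below that median, and the other 39 lay above it. Summed marker levels were 50763 to 53121 CPM in H1H2H2, 11073 to 18832 CPM in H1CKO and 42188 to 49191 CPM in control, and no marker was at 0. In bulk tissue, fewer endoderm cells and less RNA of these genes per cell cannot be told apart, and the part of the endoderm, cardiac and neural transcripts in the H1CKO result was not tested. Of the other layers, extraembryonic mesoderm markers summed to 1633 to 4557 CPM in H1H2H2, 1058 to 1284 CPM in H1CKO and 3337 to 3703 CPM in control, with 2 of 7 lower and 1 higher in H1CKO. Macrophage markers summed to 87.4 to 107, 35.5 to 48.3 and 104 to 119.5 CPM in the same groups, with 3 of 4 lower in H1CKO. In H1CKO against control, 2 of 7 parietal endoderm, 1 of 6 endothelial and 3 of 6 trophoblast and decidua markers were lower. Of the last, 1 was higher, and none of 7 erythroid markers was called. Over all genes tested, 25.6% were lower and 27% higher in H1CKO, 52.6% in either direction. The shares called of parietal endoderm (28.6%), endothelial (16.7%) and extraembryonic mesoderm markers (42.9%) were not above that 52.6%. In H1H2H2 the endoderm markers had a median log2 fold change of 0.12 against control. Of the 19, 2 were higher and none lower, where 9.49% of all genes tested were higher and 7.16% lower.

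Per library, the median log2 difference of the 40 genes from the control mean was 0.071, 0.27, 0.082 and 0.16 in H1H2H2 8 to 11. It was -0.51, -0.64 and -0.83 in H1CKO 5 to 7, and -0.070, 0.040, 0.00054 and 0.011 in control 1 to 4. The H1CKO libraries did not meet either other group, and H1CKO 5 was the mildest. For the endoderm markers the same medians were -1.21, -1.83 and -1.61 in H1CKO, so H1CKO 5 was mildest there too, while H1CKO 7 and not H1CKO 6 was lowest for the ER genes. H1H2H2 9, which held the most parietal endoderm transcripts of its group, had the highest value of the 40 genes. It also had the lowest sums of its group for extraembryonic mesoderm markers (1633 CPM, against 2982 to 4557 CPM) and endothelial markers (261 CPM, against 399.7 to 523 CPM), and their part in its value was not tested. Without it the median over the 40 genes against control was 0.11.

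**Figure D3:**
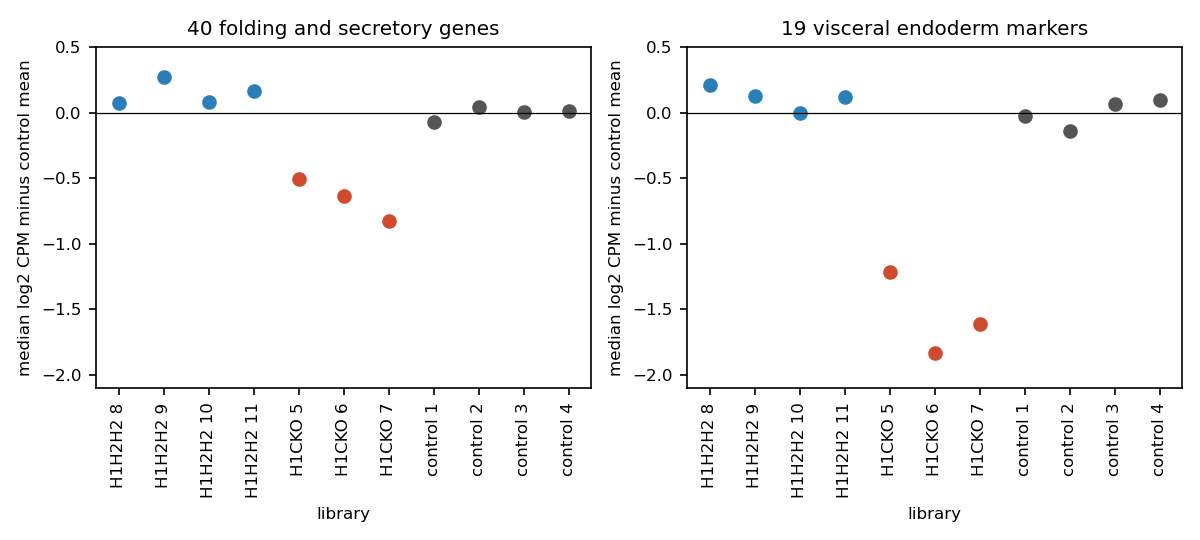
Median log2 CPM minus the control mean in each library, over the 40 ER genes (left) and over 19 visceral endoderm markers (right), with H1H2H2 left of H1CKO and control. Left, H1H2H2 lies at 0.071 to 0.27, H1CKO at -0.83 to -0.51 and control at -0.070 to 0.040.

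Per length, the order of levels among the 40 genes was led by the same 4 genes in every group, Calr, Hsp90b1, P4hb and Hspa5. In RPKM (CPM per kilobase of the deposited gene length), Calr averaged 600.0 ± 76.3 in H1H2H2 (SD, n = 4), 468 ± 66.0 in H1CKO (SD, n = 3) and 809 ± 61.2 in control (SD, n = 4). Hsp90b1, its neighbour in that order, averaged 549 ± 18.2, 408 ± 33.3 and 554 ± 22.6 RPKM in the same groups. The ranges of the pair overlapped in H1H2H2 and H1CKO and not in control. Within each library, Calr was above Hsp90b1 in all but H1H2H2 11 (565 against 568 RPKM). P4hb and Hspa5 did not differ beyond their spread in H1H2H2 (443 ± 46.3 and 435 ± 47.9 RPKM). Ern1 was lowest in all groups, at 5.54 ± 0.579, 5.07 ± 0.528 and 6.48 ± 0.739 RPKM. The summed CPM of the 40 genes were 12125 to 13346 in H1H2H2, 7145 to 8671 in H1CKO and 11440 to 12469 in control.

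The regulators split. Xbp1 and Creb3l3 fell by more than 2-fold in H1CKO, Ern1 fell slightly, and Atf6 and Creb3l2 were not called. Xbp1 (chr11:5520641-5525993, plus strand, mm10) encodes the transcription factor that enlarges the secretory machinery once IRE1 has spliced its mRNA; counts per gene do not separate the spliced from the unspliced form. Per library, in the order of the library numbers as in all lists that follow, Xbp1 stood at 232, 254, 218 and 248 CPM in H1H2H2, 111, 75.1 and 70.1 CPM in H1CKO and 215, 215, 205 and 203 CPM in control. The H1CKO libraries all lay far below both other groups, and the highest of them was H1CKO 5. Against control Xbp1 changed in H1CKO (log2 fold change -1.29 with SE 0.135 and adjusted p = 1.5e-05) and was not called in H1H2H2 (log2 fold change 0.18 with SE 0.12 and adjusted p = 0.292), although its 4 libraries lay just above the controls. Ern1 (chr11:106397620-106487796, minus strand) encodes IRE1 itself. Ern1 had 25.1, 19.8, 22.3 and 20.8 CPM in H1H2H2, 20.97, 17.8 and 21.8 CPM in H1CKO and 25.6, 29.2, 22.04 and 26.3 CPM in control. H1CKO lay below control but overlapped with H1H2H2 (log2 fold change -0.35 with SE 0.123 and adjusted p = 0.0294). The call was lost with upper-quartile scaling, sex as a term or control 1 and control 2 summed to 1 library, and without control 1, control 2 or H1CKO 6 (adjusted p from 0.0508 to 0.265).

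Creb3l3 (chr10:81084333-81098872, minus strand) encodes CREBH, a membrane-bound factor known from liver and intestine, where it is released from the ER and acts on lipid and acute-phase genes. Creb3l3 stood at 109, 106, 91.2 and 107 CPM in H1H2H2, 30.9, 24.9 and 32.2 CPM in H1CKO and 63.4, 73.3, 62.2 and 71.9 CPM in control. The 3 groups did not overlap, with H1H2H2 highest and H1CKO lowest. It was lower in H1CKO than in control (log2 fold change -1.21 with SE 0.109 and adjusted p = 6.49e-06) and higher in H1H2H2 (log2 fold change 0.61 with SE 0.0952 and adjusted p = 0.00507), and both calls held in all 21 alternatives. Between the mutant groups it gave the highest fold change of the 40 (log2 fold change 1.82 with SE 0.11 and adjusted p = 3.5e-07). Creb3l2 (chr6:37331021-37442148, minus strand), a relative known in mouse cartilage for driving secretion genes, went another way. Creb3l2 was at 51.2, 43.02, 34.6 and 37.7 CPM in H1H2H2, 79.7, 62.6 and 65.6 CPM in H1CKO and 46.9, 71.9, 45.7 and 42.8 CPM in control. H1CKO lay above H1H2H2 throughout and above 3 of the 4 controls, while control 2 reached into the H1CKO range. The direct comparison put H1H2H2 below H1CKO (log2 fold change -0.74 with SE 0.182 and adjusted p = 0.00347) and Creb3l2 was not called against control in H1CKO (log2 fold change 0.42 with SE 0.182 and adjusted p = 0.0703) or H1H2H2 (log2 fold change -0.32 with SE 0.17 and adjusted p = 0.205). It was called higher in H1CKO against control with upper-quartile scaling, limma-voom or control 1 and control 2 summed to 1 library, and without control 2 (adjusted p from 0.00391 to 0.0487).

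Atf6 (chr1:170704457-170867771, minus strand) encodes the ER-bound factor that is cut in the Golgi under stress and then activates chaperone genes. Atf6 read 76.8, 95.6, 79.7 and 85.97 CPM in H1H2H2, 73.9, 60.8 and 62.2 CPM in H1CKO and 70.9, 76.5, 69.6 and 82.6 CPM in control. H1H2H2 lay above H1CKO, and control overlapped with both. The direct comparison was called (log2 fold change 0.37 with SE 0.101 and adjusted p = 0.00686), and those with control were not (log2 fold change -0.19 in H1CKO, adjusted p = 0.13, and 0.17 in H1H2H2, adjusted p = 0.201). In H1CKO Atf6 was called lower without H1CKO 5 (adjusted p = 0.0253).

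**Figure D4:**
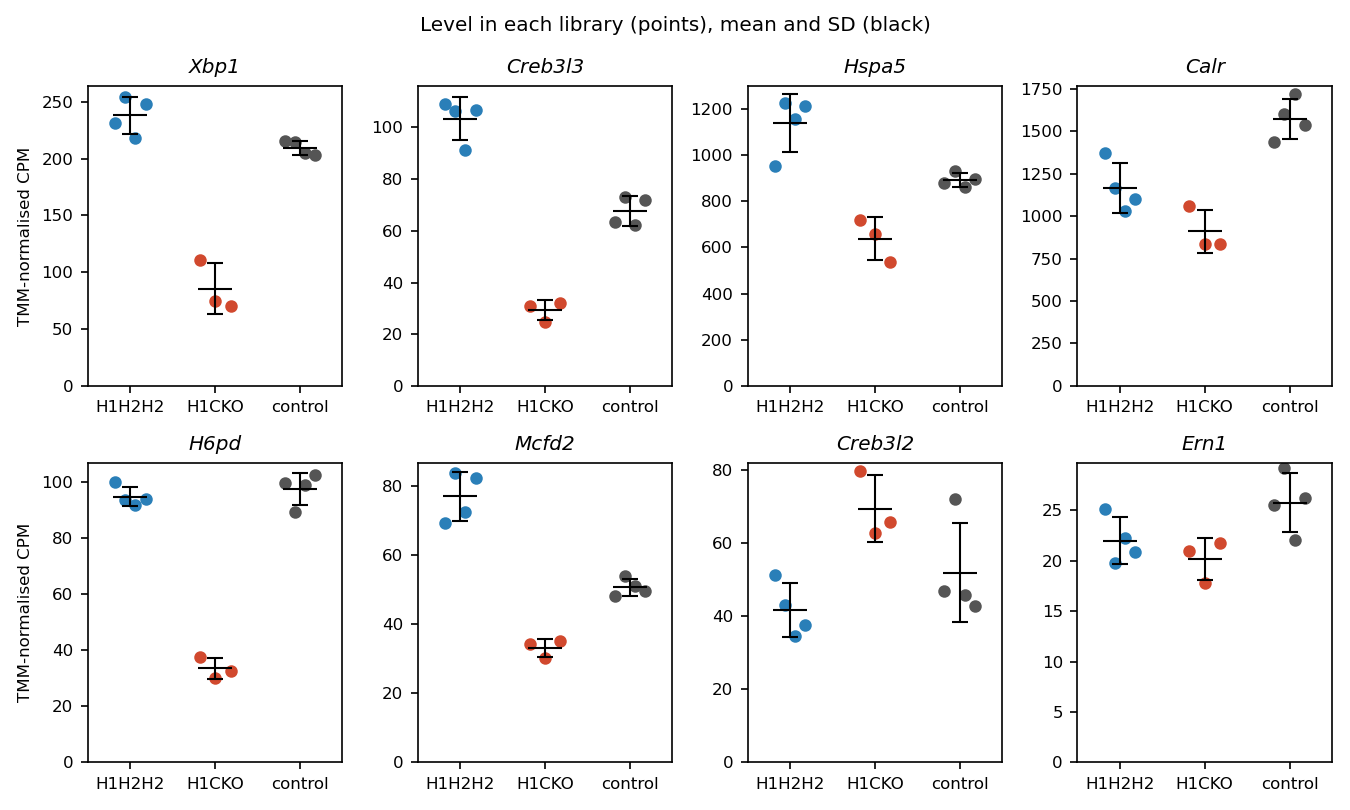
TMM-normalised CPM in each library (points) with the mean and SD (black lines) for 8 of the genes, in the order H1H2H2, H1CKO and control on axes that start at 0. Xbp1, Creb3l3, H6pd and Mcfd2 have H1CKO below both other groups, Calr is highest in control, and Creb3l2 has 1 control at 71.9 CPM among the H1CKO values.

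Among the chaperones, 10 of 11 fell in H1CKO, by log2 fold changes from -1.16 to -0.44, with a class median of -0.65. The lowest fold changes were those of a pair of J-domain partners of BiP. Dnajc3 encodes P58IPK, and Dnajb11 encodes ERdj3, which binds unfolded clients. Dnajc3 stood at 257, 291, 271 and 292 CPM in H1H2H2, 141, 109 and 85.7 CPM in H1CKO and 247, 251, 250.03 and 257 CPM in control. Dnajb11 was at 174, 197, 188 and 216 CPM in H1H2H2, 95.3, 82.7 and 65.9 CPM in H1CKO and 142, 162, 171 and 165 CPM in control. For both genes H1CKO lay below the other groups in every library, and H1CKO 7 was lowest. Dnajc3 changed in H1CKO by a log2 fold change of -1.16 with SE 0.132 and adjusted p = 2.37e-05, and Dnajb11 by a log2 fold change of -0.98 with SE 0.121 and adjusted p = 4.05e-05. Herpud1, which encodes a membrane protein that helps assemble the complex for degrading misfolded proteins, behaved likewise. Herpud1 stood at 85.5, 72.4, 66.2 and 65.3 CPM in H1H2H2, 39.8, 33.5 and 33.97 CPM in H1CKO and 62.4, 64.8, 64.6 and 62.7 CPM in control. H1CKO was lowest throughout and H1H2H2 8 was the highest library (log2 fold change in H1CKO -0.83 with SE 0.103 and adjusted p = 3.99e-05). Dnajb9, another J-domain partner, changed in H1CKO by -0.65, the trophic ER protein Manf by -0.68, the BiP exchange factor Hyou1 by -0.54, the lectin chaperone Canx by -0.45 and the HSP90 of the ER lumen, Hsp90b1, by -0.44, all on the log2 scale. Of the exon bases of Hsp90b1, 22% lie under other gene models, and whether reads were assigned by strand is not given.

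Hspa5 (chr2:34772090-34776529, plus strand), the BiP gene and the usual marker of ER stress, was called in both comparisons with control, in opposite directions. Hspa5 stood at 954, 1224, 1158 and 1211 CPM in H1H2H2, 719.6, 656 and 536 CPM in H1CKO and 878, 929, 862 and 896 CPM in control. The 3 groups did not overlap, with H1H2H2 highest and H1CKO lowest. It fell to 637 ± 93.1 CPM in H1CKO (SD, n = 3), against 891 ± 28.6 CPM in control (SD, n = 4; log2 fold change -0.48 with SE 0.115 and adjusted p = 0.00375), and this call held in all 21 alternatives. In H1H2H2 it averaged 1137 ± 125 CPM (SD, n = 4; log2 fold change 0.35 with SE 0.105 and adjusted p = 0.0417). The H1H2H2 call was lost with upper-quartile scaling, sex as a term or control 1 and control 2 summed to 1 library, and without control 1, control 2, control 3, control 4, H1CKO 6, H1H2H2 9, H1H2H2 10 or H1H2H2 11 (adjusted p from 0.0579 to 0.117).

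Calr (chr8:84842088-84846931, minus strand), which encodes the calcium-binding lectin chaperone calreticulin, was the only 1 of the 40 called lower in both mutant groups. Calr stood at 1372, 1165, 1028 and 1098 CPM in H1H2H2, 1058, 837 and 834 CPM in H1CKO and 1435, 1599.7, 1719 and 1536 CPM in control. Control lay above both mutant groups in every library, and H1H2H2 10 fell among the H1CKO values. It changed in H1CKO by a log2 fold change of -0.79 with SE 0.123 and adjusted p = 0.000212, and in H1H2H2 by a log2 fold change of -0.43 with SE 0.112 and adjusted p = 0.0265. The H1H2H2 call was lost without control 2, control 3, H1H2H2 9, H1H2H2 10 or H1H2H2 11 (adjusted p from 0.0552 to 0.0809). H1H2H2 was above H1CKO by a log2 fold change of 0.36 with SE 0.122 and adjusted p = 0.0212. That call was lost with upper-quartile scaling, and without H1CKO 6 or H1CKO 7 (adjusted p from 0.065 to 0.0897). Its membrane-bound relative Canx had a log2 fold change of 0.24 in H1H2H2 (adjusted p = 0.0615), which was not called. Sdf2l1, which encodes a partner of ERdj3, was the chaperone that did not pass in H1CKO. Sdf2l1 had 16.6, 30.5, 21.01 and 23.5 CPM in H1H2H2, 19.2, 13.97 and 14.8 CPM in H1CKO and 15.4, 18.4, 15.5 and 17.998 CPM in control. All groups overlapped, and H1H2H2 9 was the highest library. The direct comparison was called (log2 fold change 0.52 with SE 0.187 and adjusted p = 0.0272). It was lost with upper-quartile scaling, and without H1CKO 6, H1CKO 7 or H1H2H2 9 (adjusted p from 0.0549 to 0.0913).

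All 5 genes of disulfide formation and lumen redox were lower in H1CKO, and H6pd fell the most of all 40. H6pd (chr4:149979474-150009023, minus strand) encodes hexose-6-phosphate dehydrogenase, which makes NADPH inside the ER. H6pd stood at 100.2, 93.7, 92.1 and 93.9 CPM in H1H2H2, 37.8, 30.3 and 32.8 CPM in H1CKO and 99.9, 89.4, 98.95 and 103 CPM in control. H1H2H2 and control overlapped, and H1CKO lay far below them in every library. The mean was 33.6 ± 3.80 CPM in H1CKO (SD, n = 3), against 97.7 ± 5.76 CPM in control (SD, n = 4; log2 fold change -1.54 with SE 0.0872 and adjusted p = 7.73e-07). P4hb encodes protein disulfide isomerase, which is also a subunit of collagen prolyl hydroxylase and of the transfer protein that loads lipid onto apolipoprotein B. P4hb stood at 1128, 1288, 1021 and 1061 CPM in H1H2H2, 703, 621 and 652 CPM in H1CKO and 966, 1163, 1023 and 1019 CPM in control. H1CKO was below both other groups, which overlapped (log2 fold change in H1CKO -0.66 with SE 0.103 and adjusted p = 0.000196). Pdia6 encodes a further isomerase that works with BiP. Pdia6 stood at 418, 514, 471 and 493 CPM in H1H2H2, 285, 255 and 244 CPM in H1CKO and 356, 389, 398 and 384 CPM in control. The groups did not overlap and ran from H1H2H2 at the top to H1CKO at the bottom. It fell in H1CKO (log2 fold change -0.55 with SE 0.0898 and adjusted p = 0.000295) and rose in H1H2H2 (log2 fold change 0.31 with SE 0.082 and adjusted p = 0.0272). The H1H2H2 call was lost with sex as a term or control 1 and control 2 summed to 1 library, and without control 1, control 2, control 3, H1H2H2 9, H1H2H2 10 or H1H2H2 11 (adjusted p from 0.0517 to 0.0895). Pdia3 and Pdia4, isomerases of the glycoprotein and BiP systems, had log2 fold changes of -0.47 and -0.46 in H1CKO, and of -0.037 and -0.073 in H1H2H2, where neither was called.

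The translocon and signal peptidase genes, which bring proteins into the ER and trim them, were lower in H1CKO in 12 of 12 cases, with log2 fold changes from -0.83 to -0.21. Sec61a1 encodes the channel itself. Sec61a1 stood at 413, 507, 465 and 481 CPM in H1H2H2, 259.8, 216 and 201 CPM in H1CKO and 373, 392, 411 and 397 CPM in control. The groups did not overlap, H1H2H2 being highest and H1CKO lowest (log2 fold change in H1CKO -0.80 with SE 0.101 and adjusted p = 4.53e-05). Antisense gene models cover 18% of the exon bases of Sec61a1 and 12.8% of those of Sec62, which makes these counts less certain. Sec62 encodes an auxiliary subunit for short or late-arriving precursors. Sec62 stood at 203, 206, 202 and 206 CPM in H1H2H2, 138, 120.4 and 114 CPM in H1CKO and 177, 199, 199 and 197 CPM in control. H1CKO was lowest in every library, and control 1 stood below the other controls (log2 fold change in H1CKO -0.63 with SE 0.077 and adjusted p = 3.7e-05). Ssr2 encodes a subunit of the translocon-associated TRAP complex. Ssr2 stood at 216, 207, 178 and 193 CPM in H1H2H2, 126, 102 and 102 CPM in H1CKO and 187, 202, 192 and 202 CPM in control. H1CKO lay below both other groups, which overlapped (log2 fold change in H1CKO -0.83 with SE 0.0935 and adjusted p = 2.25e-05). A Rtraf transcript shares near-identical sequence with Ssr2, so its counts could be split. Of the other TRAP subunits, Ssr4, Ssr1 and Ssr3 had log2 fold changes in H1CKO of -0.72, -0.71 and -0.60.

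In H1H2H2, 2 genes of this class were called higher, the channel subunit gene Sec61b and the signal peptidase subunit gene Spcs1. Sec61b stood at 47.4, 63.8, 53.05 and 57.9 CPM in H1H2H2, 26.5, 32.4 and 25.7 CPM in H1CKO and 44.6, 46.4, 37.6 and 39.8 CPM in control. Spcs1 stood at 50.2, 64.7, 58.4 and 62.4 CPM in H1H2H2, 33.1, 28.2 and 23.6 CPM in H1CKO and 40.7, 43.3, 44.7 and 44.5 CPM in control. For both, all H1H2H2 libraries lay above all controls and H1H2H2 9 was highest. Sec61b changed in H1H2H2 by a log2 fold change of 0.40 with SE 0.111 and adjusted p = 0.0328, and Spcs1 by a log2 fold change of 0.44 with SE 0.106 and adjusted p = 0.020. The Sec61b call was lost with upper-quartile scaling, sex as a term or control 1 and control 2 summed to 1 library, and without control 1, control 3, control 4, H1H2H2 9, H1H2H2 10 or H1H2H2 11 (adjusted p from 0.0509 to 0.0992). The Spcs1 call was lost with sex as a term or control 1 and control 2 summed to 1 library, and without control 1, control 3, H1H2H2 9 or H1H2H2 11 (adjusted p from 0.0501 to 0.0695). Sec61b has a near-identical copy, Gm10320, and 24.5% of the exon bases of Spcs1 lie under Glt8d1 on the opposite strand. In H1CKO they changed by -0.58 and -0.61, the peptidase subunits Spcs2 and Spcs3 by -0.44 and -0.62, and the channel subunit Sec61g by -0.47 (log2). Sec61g and Spcs2 also have near-identical copies. Sec63, which couples BiP to the channel, moved least in H1CKO (log2 fold change -0.21 with SE 0.064 and adjusted p = 0.0155). This call was lost with upper-quartile scaling or sex as a term, and without H1CKO 7 (adjusted p from 0.0639 to 0.0736). Between the mutant groups Sec63 was called higher in H1H2H2 (log2 fold change 0.16 with SE 0.064 and adjusted p = 0.0405). That call was lost with upper-quartile scaling, a fit of those 2 groups alone, sex as a term or control 1 and control 2 summed to 1 library, and without control 1, control 2, H1CKO 7, H1H2H2 10 or H1H2H2 11 (adjusted p from 0.0547 to 0.512).

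All 7 genes of ER exit were lower in H1CKO. COPII vesicles form when PREB, the exchange factor, loads a SAR1 GTPase, which then recruits the inner coat of SEC23 and SEC24 and the outer coat of SEC31. Sec24d, an inner coat gene, fell the furthest. Sec24d stood at 157, 157, 134 and 153 CPM in H1H2H2, 69.9, 63.1 and 54.04 CPM in H1CKO and 130.1, 165, 144 and 146 CPM in control. H1CKO lay far below the other groups, which overlapped (log2 fold change in H1CKO -1.23 with SE 0.107 and adjusted p = 5.39e-06). Preb encodes the exchange factor. Preb stood at 169, 142, 155 and 163 CPM in H1H2H2, 96.8, 74.2 and 73.1 CPM in H1CKO and 143, 140.3, 166 and 169 CPM in control. H1CKO was lowest throughout (log2 fold change in H1CKO -0.93 with SE 0.114 and adjusted p = 3.93e-05), and 28.9% of its exon bases lie under Abhd1 on the opposite strand. Lman1 encodes ERGIC-53, the lectin that in humans carries coagulation factors out of the ER. Lman1 stood at 251, 259, 241 and 248 CPM in H1H2H2, 142, 135 and 129 CPM in H1CKO and 226, 256, 247 and 236 CPM in control. H1CKO was again the only group that stood apart (log2 fold change in H1CKO -0.83 with SE 0.0688 and adjusted p = 4.71e-06). The outer coat gene Sec31a changed in H1CKO by -0.53 (log2) and was not called in H1H2H2 (-0.11).

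The other 3 genes of ER exit were called in opposite directions, higher in H1H2H2 and lower in H1CKO. Mcfd2 (chr17:87254443-87265947, minus strand) encodes the partner of ERGIC-53 in the coagulation factor receptor. Mcfd2 stood at 69.5, 83.9, 72.7 and 82.5 CPM in H1H2H2, 34.2, 30.3 and 35.1 CPM in H1CKO and 48.2, 53.99, 51.1 and 49.8 CPM in control. The groups did not overlap. Its mean was 77.1 ± 7.12 CPM in H1H2H2 (SD, n = 4), against 50.7 ± 2.47 CPM in control (SD, n = 4; log2 fold change 0.60 with SE 0.0814 and adjusted p = 0.00252), and in H1CKO it changed by a log2 fold change of -0.61 with SE 0.0906 and adjusted p = 0.000146. Both calls held in all 21 alternatives. Sar1b encodes the GTPase that, in humans, the gut needs to export lipoproteins. Sar1b stood at 35.6, 53.3, 49.4 and 50.2 CPM in H1H2H2, 21.8, 20.3 and 16.2 CPM in H1CKO and 34.3, 34.9, 30.2 and 31.2 CPM in control. H1H2H2 8 lay close to the controls and the other 3 H1H2H2 libraries well above them. Sar1b changed by a log2 fold change of 0.53 with SE 0.129 and adjusted p = 0.021 in H1H2H2 and by a log2 fold change of -0.75 with SE 0.146 and adjusted p = 0.000989 in H1CKO. The H1H2H2 call was lost without control 3, H1H2H2 9, H1H2H2 10 or H1H2H2 11 (adjusted p from 0.0535 to 0.0649). Sec23b encodes an inner coat subunit. Sec23b stood at 127, 152, 123 and 137 CPM in H1H2H2, 73.9, 61.4 and 57.7 CPM in H1CKO and 98.7, 97.3, 111 and 109 CPM in control. The groups did not overlap (log2 fold change in H1H2H2 0.37 with SE 0.0928 and adjusted p = 0.0221, and in H1CKO log2 fold change -0.69 with SE 0.103 and adjusted p = 0.000147). Its H1H2H2 call was lost with sex as a term or control 1 and control 2 summed to 1 library, and without control 1, control 2, H1H2H2 9 or H1H2H2 11 (adjusted p from 0.0578 to 0.10).

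**Figure D5:**
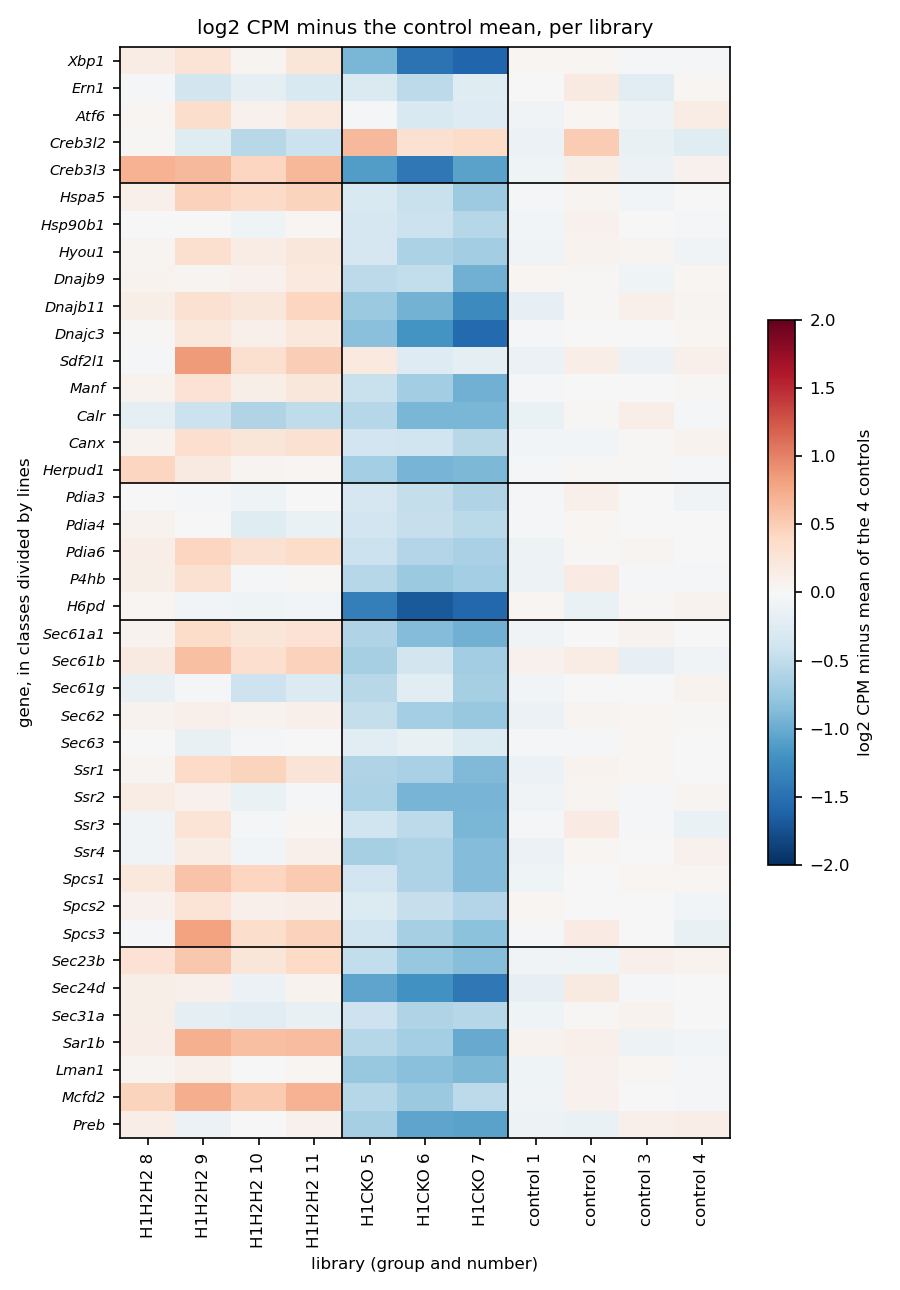
Log2 CPM minus the control mean for each of the 40 genes (rows, in classes divided by lines) and library (columns, H1H2H2 8 to 11, H1CKO 5 to 7 and control 1 to 4), red above and blue below the control mean. The H1CKO columns are blue for nearly all rows, Creb3l2 being red in all 3, and Calr is blue in both mutant groups.

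Over all 40 genes, 26 were lower in H1CKO, not called in H1H2H2 and higher in H1H2H2 than in H1CKO. A further 8 were lower in H1CKO and higher in H1H2H2. Only Calr was lower in both mutant groups and higher in H1H2H2 than in H1CKO. The share of all genes tested with each of these patterns was not counted. Taken singly, 25.6% of all genes were lower in H1CKO than in control, and 31.8% were higher in H1H2H2 than in H1CKO. Any 2 of the comparisons share a group of libraries, so calls that go together are in part built in. In the authors' deposited table, 37 of the 40 were lower in H1CKO at an FDR under 0.05 and none higher. There, 10 were higher and 1 lower in H1H2H2 against control, and 37 were higher and 1 lower in H1H2H2 against H1CKO. No sign differed from those given here. Those values come from the same libraries, so the likeness is not independent support. The share of all genes called at the authors' FDR was not counted.

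Genes with and without the promoter elements are set side by side here, with no test. The 6 genes with an exact ERSE had a median log2 fold change of -0.52 in H1CKO, all of them called lower, and 0.19 in H1H2H2, with 2 higher and 1 lower. The 27 with a window and no exact ERSE had medians of -0.63, with 25 lower, and 0.10, with 6 higher. Hspa5 and Pdia6, which carry an ERSE, were called higher in H1H2H2, and Calr, which carries 1 as well, was called lower. Creb3l3, H6pd and Xbp1, with the lowest log2 fold changes in H1CKO beside Sec24d, had a window and no match to ERSE, ERSE-II or UPRE. Of 31 other genes with an exact ERSE, 13 were tested. In H1CKO 2 of these were higher and 7 lower, where 27% of all genes tested were higher and 25.6% lower. In H1H2H2 1 was higher and 1 lower, near the 9.49% higher and 7.16% lower of all genes. The 13 include Syvn1 and Derl3, which are also in the list of ER-associated degradation below, and the X-linked Xlr3a, Xlr3b and Xlr3c. Sex is unevenly spread over the groups.

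Most of the listed genes that work beside the 40 fell in H1CKO as well. Their lists, too, were drawn up with earlier results of these data known. Of 100 such genes in 9 lists, 75 were lower and 3 higher in H1CKO than in control, where 25.6% of all genes tested were lower and 27% higher, with a median log2 fold change of -0.47. In H1H2H2, 27 were higher and 2 lower, where 9.49% of all genes were higher and 7.16% lower, with a median of 0.19. Between the mutant groups 81 were higher and 3 lower in H1H2H2, where 31.8% of all genes were higher and 33.3% lower. Over the 21 alternatives the H1CKO counts ran from 67 to 78 lower and from 1 to 7 higher, and the H1H2H2 counts from 7 to 46 higher and from 1 to 7 lower. The count of 27 went to 7 without control 1, 15 without control 2, 7 without control 3, 16 without control 4, 12 without H1H2H2 9, 16 without H1H2H2 10 and 8 without H1H2H2 11, and to 46 without H1H2H2 8, while sex as a term gave 7. Higher calls in H1H2H2 over all genes tested moved too, from 1392 to 461 with sex as a term and to 2664 without H1H2H2 8. The genes higher in H1CKO were Chac1, Ero1l and the outer coat gene Sec31b (log2 fold change 0.82, adjusted p = 0.0444). The Sec31b call was lost in 10 alternatives, among them those without control 1, control 2, control 3, H1H2H2 10 or any 1 H1CKO library (adjusted p up to 0.154). Those lower in H1H2H2 than in H1CKO were Chac1 (-3.71), the adaptor gene Nck2 (-0.36), whose call was lost without H1CKO 6, H1CKO 7, H1H2H2 10 or H1H2H2 11, and the coat gene Sec24b (-0.29), whose call was lost in 17 alternatives.

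Among genes of glycan addition and quality control, 10 of 11 of the oligosaccharyltransferase, which attaches N-glycans, fell in H1CKO. They include Stt3a, a catalytic subunit (log2 fold change -0.86 with SE 0.0889 and adjusted p = 1.35e-05), Ostc (-1.12) and Rpn1 (-0.70). Of 6 glycan-trimming genes 3 fell, the folding sensor Uggt1 (-0.56) and the glucosidase genes Mogs (-0.50) and Prkcsh (-0.28). ER-associated degradation returns misfolded proteins to the cytosol, and 12 of its 14 genes fell. In H1H2H2 5 were higher (2 to 6 over the alternatives), and the calls on Derl2 and Nploc4 were lost in 14 and 12 alternatives, both of them without any 1 control and without H1CKO 6, H1H2H2 9, H1H2H2 10 or H1H2H2 11, and that on Derl2 also without H1CKO 5 or H1CKO 7. Sel1l, the scaffold of the ligase complex, changed by -0.84 in H1CKO (adjusted p = 2.52e-05), Edem3 of the mannose-trimming step by -0.63 and Ubxn4, an anchor for the VCP ATPase, by -0.56. Of 13 further disulfide and proline enzymes 10 fell, among them Pdia5 (-1.06), Txndc11 (-0.94) and Erp44 (-0.89), while Ero1l, the oxidase that recharges disulfide isomerases, was higher. Ero1l stood at 89.2, 158, 121 and 117 CPM in H1H2H2, 105, 111 and 108 CPM in H1CKO and 82.3, 80.5, 84.3 and 85.7 CPM in control. Both mutant groups lay above control (log2 fold change 0.55 in H1H2H2, adjusted p = 0.020, and 0.38 in H1CKO, adjusted p = 0.0388). Both Ero1l calls were lost without control 1, control 2, control 3 or H1H2H2 11 and with sex as a term, and that in H1CKO also without control 4, H1H2H2 10 or any 1 H1CKO library, in 12 of 21 alternatives in all (adjusted p up to 0.148).

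Of the targeting and transport lists, 6 of 8 genes of the signal recognition particle and its receptor fell in H1CKO, with Srprb at -0.73, Srpr at -0.64 and Srp72 at -0.30. Of 10 further translocon and insertion genes 9 fell, and Sec11c, a catalytic subunit of the signal peptidase, fell the most. Sec11c stood at 22.1, 31.3, 28.9 and 30.5 CPM in H1H2H2, 7.46, 8.25 and 6.11 CPM in H1CKO and 20.2, 19.2, 18.7 and 21.2 CPM in control. H1CKO lay far below both other groups (log2 fold change in H1CKO -1.45 with SE 0.146 and adjusted p = 1.25e-05), and Emc7 and Tram1 changed by -0.91 and -0.75. Of 17 COPII and p24 genes 15 fell, among them Sec24a (-0.89) and the cargo lectin gene Lman2 (-0.84), and 6 were higher in H1H2H2 (1 to 10 over the alternatives). Of 11 genes of COPI, the coat of the return path, and of the KDEL receptors 8 fell, among them Arcn1 (-0.71), Copb2 (-0.56) and Copg1 (-0.40).

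Sec16b, which encodes an organiser of ER exit sites, was lower in both mutant groups. Sec16b stood at 14.8, 11.004, 8.92 and 13.1 CPM in H1H2H2, 9.58, 8.02 and 8.40 CPM in H1CKO and 26.2, 24.5, 25.9 and 29.7 CPM in control. All mutant libraries lay well below all controls (log2 fold change in H1H2H2 -1.15 with SE 0.146 and adjusted p = 0.00182, and -1.62 in H1CKO, SE 0.165, adjusted p = 1.31e-05). Both calls held in all 21 alternatives. The other gene called lower in H1H2H2 was Dad1 of the oligosaccharyltransferase (log2 fold change -0.38, adjusted p = 0.0375), and that call was lost in 10 alternatives, among them those without any 1 control and without H1H2H2 9, 10 or 11 (adjusted p up to 0.113). Srp54a of the signal recognition particle had the highest log2 fold change of the 100 in H1H2H2 (1.18, adjusted p = 0.00474).

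The PERK branch, by which the third sensor slows translation, was not called in most of its genes. Of its 10 genes, 2 fell in H1CKO, 1 rose and 7 were not called, where 25.6% of all genes tested were lower and 27% higher. Eif2ak3, which encodes PERK, fell. Eif2ak3 stood at 79.3, 90.6, 75.9 and 81.2 CPM in H1H2H2, 44.1, 34.7 and 36.6 CPM in H1CKO and 71.96, 71.3, 69.2 and 73.2 CPM in control. H1CKO lay below both other groups (log2 fold change in H1CKO -0.89 with SE 0.0927 and adjusted p = 1.42e-05). Ppp1r15b, which encodes a subunit of the eIF2 phosphatase, changed by -0.43. Chac1, a glutathione-degrading enzyme gene and a target of ATF4, rose in H1CKO, at low levels in all groups. Chac1 stood at 0.353, 0.435, 0.264 and 0.206 CPM in H1H2H2, 1.49, 5.88 and 5.34 CPM in H1CKO and 0.355, 0.481, 0.745 and 0.265 CPM in control. H1CKO lay above all other libraries, with H1CKO 5 lowest of its group (log2 fold change in H1CKO 3.19 with SE 0.476 and adjusted p = 0.000153). Of the other stress-induced genes of this branch, Ppp1r15a, Atf3, Ddit3, Trib3 and Atf4 were not called in H1CKO, with log2 fold changes of 0.42, 0.38, 0.36, 0.058 and -0.15. Without control 4, Ppp1r15a and Ddit3 were called higher there, the lowest adjusted p of Ddit3 over the alternatives being 0.0473, and upper-quartile scaling gave a higher call for Ppp1r15a and Atf3. Atf3 was higher in H1H2H2 than in control (log2 fold change 0.88, adjusted p = 0.00763).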

How the data were processed

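RNA of 11 mouse yolk sac samples at embryonic day 9.5 was sequenced from KAPA mRNA libraries, per the labels; whether the libraries come from separate embryos or litters is not stated, so p-values measure the spread between these samples. Per its headers, the table the authors deposited gives raw counts for each gene in each library. It also holds log2 FPKM values, log2 fold changes and p-values with FDR that the authors computed; of these only the fold changes and FDR were compared with the results here. The submitters' processing notes name mm10, STAR 2.5.2b, featureCounts of Subread 1.5.1 and edgeR, with no settings. Reads shared between near-identical copies, or between overlapping genes, may be lost or misassigned.

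Counts were filtered with filterByExpr (minimum count 10), scaled by TMM and tested with edgeR 4.0.16 in R 4.3.3 (quasi-likelihood, all 11 libraries in 1 fit, 3 contrasts), with Benjamini-Hochberg adjustment over all 14671 genes and a threshold of 0.05. The biological coefficient of variation came to 0.171 across genes, and each SE was taken from the fold change and its F statistic. Means carry the SD over libraries. The scripts were tested on simulated data.

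The descriptions of control 1 and control 2 share a yolk sac number. Their log2 CPM had a Pearson r of 0.979, among 0.977 to 0.986 over control pairs. This r does not tell 2 yolk sacs from 2 libraries of 1. Their summed parietal endoderm markers differed, at 3596 CPM in control 1 and 16677 CPM in control 2. Whether they come from 1 yolk sac was not tested. They were used as separate samples, and a fit with their sum is an alternative. H1CKO descriptions name a knockout over a floxed allele, while titles and genotypes name 2 floxed alleles, which were used. The control descriptions say wild type.

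The 40 genes, the lists of related genes and the markers were chosen with earlier results of these data known. Genes with values for every library are the regulators, the 3 of each other class with the smallest p in H1CKO, those called in H1H2H2 against control and the extremes of each comparison; from each related list, the 3 with the smallest p in H1CKO were named, and Ero1l, Sec11c, Sec16b, Chac1, Eif2ak3, Dad1, Srp54a and Atf3 were given more values after these were seen. The 21 alternatives were DESeq2 1.42.0 (size factors or test), upper-quartile scaling, limma-voom (limma 3.58.1), no filter and 1 CPM in 3 libraries. The others were the 2 groups alone, sex as a term, globins and Rn45s left out, control 1 and control 2 summed, and each library left out. An adjusted p of 0.01 and a change of 1.5-fold were also tried and are not among the 21. For the related lists the 21 were applied after seeing the data. Promoters came from RefSeq (GRCm38.p6); Atf6, Manf, Hyou1, Sec61a1, Ssr2, Spcs3 and Lman1 are the genes without a window. Values of some marker genes are not reported here.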

Additional observations from a re-analysis of the deposited data

Results flagged for a closer look

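In 3 of 80 groups of 4 libraries tested over the 40 genes, 1 library lay far from the other 3 by Dixon's test at 95%, which chance alone would give in about 1 of 20 groups. Creb3l3 was at 91.2 CPM in H1H2H2 10, against 106 to 109 CPM in the other H1H2H2 libraries. Creb3l2 was at 71.9 CPM in control 2, against 42.8 to 46.9 CPM in the other controls. Sec62 was at 177 CPM in control 1, against 197 to 199 CPM in the other controls.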

How the results depend on the processing

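No paired analysis was possible because the replicate numbers, 1 to 11, are not shared between the groups. In H1CKO against control, the 40 genes gave 36 to 38 lower calls when single libraries were left out, and 35 of 37 lower calls held in all 21 alternatives; with a change of at least 1.5-fold required, 24 were called, all lower. Higher calls went to 1 (Creb3l2) with upper-quartile scaling, limma-voom, or control 1 and control 2 summed, and ranged from 0 to 1 with single libraries left out; total calls then ranged from 36 to 38. In H1H2H2 against H1CKO, 35 of 38 calls held in all 21 alternatives, and leaving out single libraries gave 34 to 37 higher and 1 lower. Of those that held, Atf6, Hsp90b1, Pdia3, Pdia4 and Sec31a were changes under 1.5-fold (1.29-fold to 1.35-fold). The H1H2H2 against control calls were the least stable: in all 4 (3 higher) with sex as a term, 4 (3 higher) with control 1 and control 2 summed, 2 (both higher, 0 lower) at an adjusted p under 0.01 and 2 (0 lower) with a 1.5-fold change. Calls over all genes tested fell as well, from 1392 higher and 1051 lower to 461 and 347 with sex as a term. With control 1 and control 2 summed they came to 670 and 475. Among the 40 genes, leaving out single libraries gave 2 to 15 calls, 2 to 14 higher and 0 to 1 lower. The call on Calr was lost without control 2, control 3, H1H2H2 9, H1H2H2 10 or H1H2H2 11. Fold changes near 0 in H1H2H2 against control turned below 0 as follows: Ssr2 to -0.029 with upper-quartile scaling, -0.025 with sex as a term, -0.0020 without control 1, -0.023 without H1H2H2 8 and -0.0034 without H1H2H2 9; Lman1 to -0.0020 with upper-quartile scaling; Sec24d to -0.011 with upper-quartile scaling, -0.012 with sex as a term and -0.013 without control 1; Ssr3 to -0.025 without H1H2H2 9; Ssr4 to -0.015 with upper-quartile scaling, -0.0027 without control 1 and -0.0087 without H1H2H2 9; and Preb to -0.024 with upper-quartile scaling, -0.018 with sex as a term, -0.014 with control 1 and control 2 summed, and -0.013, -0.020, -0.013 and -0.0037 without control 1, control 2, H1H2H2 8 and H1H2H2 11. Hsp90b1, just below 0, turned to 0.014 without control 2 and 0.0055 without H1H2H2 10. With single libraries left out, Ssr2 ran up to 0.069, Sec24d up to 0.10 and Preb up to 0.064, so these genes have no direction in H1H2H2. The causes were not tested.

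At 12019377 to 16824228 counts per library the least expressed of the 40 genes still held 143 reads or more in each library, and the small H1H2H2 differences rest on 4 libraries a side. Sex is unevenly spread over the groups. With sex as a term, 35 of the 40 genes were lower in H1CKO. Over all genes tested, 2964 were lower in H1CKO with that term and 3753 without it. H1CKO holds no female library for a value within females.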
